A study of Mus musculus with 6 samples.

Results

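The genes described here encode the subunits of the proteasome and proteins that activate, assemble or bind it, and were taken by symbol. They are the 43 mouse genes, of 8251 measured, whose symbol begins with Psma to Psmg followed by a number and which had a probe set (a group of short oligonucleotides for one transcript) assigned to a single gene. Psmb8, Psmb9 and Psmb10, the inducible catalytic subunits, were left out of the set and are given only for comparison. The 43 genes had 55 of the 10833 single-gene probe sets. By role they were 7 alpha and 7 beta subunits of the 20S core, 6 ATPases and 3 other subunits of the base of the 19S cap, 8 subunits of its lid, 3 activators and 7 assembly chaperones. Another 2, Psmc3ip and Psme3ip1, matched by name alone: they encode proteins that bind a proteasome subunit and are not subunits, and they are kept apart in what follows. Psme2, the partner of Psme1, had no single-gene probe set and was not analysed here.

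Signals were measured on 6 Affymetrix MGU74Av2 arrays in mouse tibialis anterior, the muscle at the front of the shin, taken 48 h after exercise of the leg in a non-invasive model. The eccentric pool came from muscles given 50 contractions while being lengthened, and the isometric pool from muscles given 50 contractions at fixed length. The control pool came from legs on the other side of exercised animals, contracted just enough for a reading of isometric torque. Each group was 1 RNA pool of 4 animals, split onto 2 arrays lettered A and B. Strain, age and sex of the animals, and the exercise done by the mice behind the control legs, were not stated in the labels. Because a group is 1 pool, values are given for each array, the spread between arrays covers labelling and hybridisation but not animals, and p-values that compare kinds of contraction over animals cannot be had.

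The proteasome degrades proteins that carry chains of ubiquitin. Its core is a barrel of alpha and beta rings with the catalytic sites inside. The cap binds to the ends of the barrel: its base holds a ring of ATPases that unfold the substrate, and its lid removes the ubiquitin. Activators of another kind can replace the cap, and chaperones help to assemble both parts. In skeletal muscle this system is the main route by which contractile proteins are broken down, in turnover as well as in wasting.

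Most proteasome genes differed little between the pools, and the counts for cap and core stood furthest apart in the comparison of the 2 exercised pools. In the eccentric pool 14 of 15 measured cap genes had higher signals on both arrays than on either isometric array, with a median log2 difference of 0.24, whereas 5 of 14 core genes did, with a median of 0.11. The core was not of one kind. Of its alpha genes 4 of 7 were higher in this way, with a median of 0.33, above that of the cap. Of its beta genes 1 of 7 was, with a median of 0.08. Higher eccentric signals were thus not particular to the cap. Over all 5622 genes tested the share was 28.5% and the median was 0.02. The cap differences were small except for the ubiquitin receptor Psmd4 and the lid subunits Psmd8 and Psmd7, which were 1.53-fold to 1.84-fold higher. Psmd4 and Psmd8 were also higher in the eccentric than in the control pool, each by 1.65-fold. The assembly chaperone Psmd5 alone among the 43 genes passed a 2-fold rule, in both exercised pools against the control pool, and that call was lost when control A was left out.

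A gene was tested in a comparison when its signal lay above a floor of 120.8, the 40th percentile of all values, on each of the 2 arrays of either pool. The 2-fold rule required a difference in mean log2 signal of 1 or more, and the same sign in the 4 pairings that set each array of the first pool against each array of the second. The 1.5-fold rule asked the same of a smaller difference, and a gene was said not to overlap when those 4 differences shared their sign, whatever the size. Folds are ratios of geometric means, and the range after each is that over the 4 pairings. Of the 43 genes 40 were tested in each of the 3 comparisons, and 39 lay above the floor on all 6 arrays. Psmd2, a large scaffold subunit of the base, and Psmc3ip lay below the floor on all 6 arrays, and the ATPase Psmc4 stayed between 58 and 137, so none of these was tested. Levels of different genes are not compared, since the brightness of a probe set depends on its sequence.

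Under the 2-fold rule 1 of 40 members was called between the eccentric and the control pool, where 6.21% of all 5682 genes tested were. Between the isometric and the control pool 1 of 40 was called, against 1.24% of 5574 genes, and between the eccentric and the isometric pool 0 of 40, against 2.4% of 5622 genes. Under the 1.5-fold rule the eccentric pool had 3 of 40 members higher than the control pool (all genes 12.2%) and 0 lower (7.25%). The isometric pool had 1 higher (3.89%) and 0 lower (2.31%), and the eccentric against the isometric pool had 3 higher (7.7%) and 0 lower (4.94%). In both comparisons with the eccentric pool the members' shares past either rule were thus near to or below those of all genes. The median log2 difference over the 40 members was 0.084 between the eccentric and the control pool, -0.12 between the isometric and the control pool and 0.14 between the exercised pools, beside -0.02, -0.01 and 0.02 over all genes. Non-overlap of any size was more frequent in 1 direction. In the eccentric against the isometric pool 20 of 40 members were higher without overlap (all genes 28.5%) and 1 was lower (25.1%). Against the control pool 17 were higher (30.8%) and 4 lower (31%) in the eccentric pool, and 2 were higher (18.9%) and 13 lower (18.4%) in the isometric pool. Brightness was looked at after seeing the data, because 30 of the 40 members had a mean signal of at least 1000. Of these 30, 18 were higher and 1 was lower without overlap in the eccentric than in the isometric pool, where 27.1% and 37.8% of the 1538 genes as bright were. In the eccentric against the control pool 12 were higher (29.3%) and 4 lower (44.5%), and in the isometric against the control pool 1 was higher (19.4%) and 11 were lower (17.6%).

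**Figure D1:**
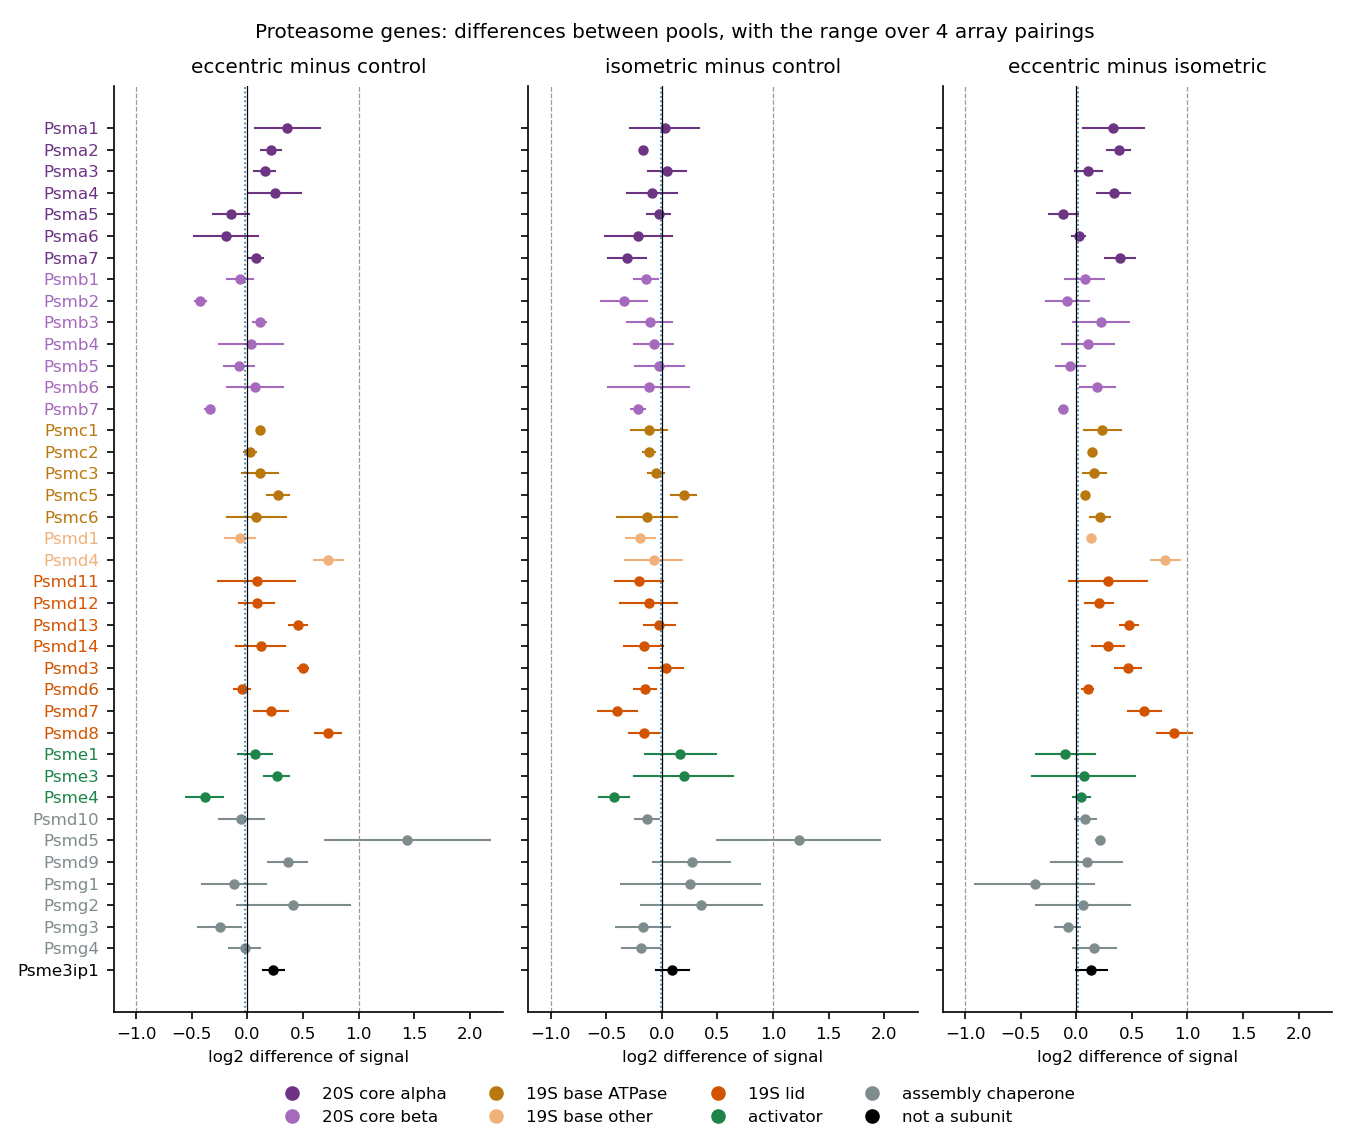
Log2 difference of signal between pools (x axis) for the 40 tested proteasome genes (y axis, coloured by role), in 3 panels. Points are differences of pool means over 2 arrays each, bars span the 4 pairings of arrays, dashed lines mark 2-fold and the dotted line the median of all genes tested. Cap genes lie to the right of 0 in the eccentric minus isometric panel, with Psmd8 at 0.88 and Psmd4 at 0.80. So do 6 of the 7 core alpha genes, while core beta genes scatter around 0. Psmd5 stands alone in the first 2 panels at 1.44 and 1.23.

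The 3 comparisons share arrays, so their counts are not independent of each other. Among the 40 members 17 had the isometric pool lowest, the control pool in the middle and the eccentric pool highest, an order seen in 13.9% of the 5312 genes tested in all 3 comparisons. Isometric B was the lowest of the 6 arrays for 12 members and isometric A for 11, where each was lowest for 16.2% and 15% of all genes. Eccentric B was the highest array for 15 members, against 16.1% of all genes. The median deviation of the members from their own means was -0.08 on isometric A, -0.11 on isometric B, 0.06 on eccentric A and 0.11 on eccentric B on the log2 scale. The log2 difference between arrays A and B of a pool had an SD over the members of 0.33 for the control, 0.16 for the eccentric and 0.28 for the isometric arrays. These SDs are of differences between single arrays, whereas pool differences are between means of 2 arrays, so they are no direct yardstick for them. The control SD includes Psmd5, with 245 and 669 on its 2 control arrays. Small single differences are best read with the range over the 4 pairings.

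Some values on the arrays other than the proteasome genes moved with the pools, and others differed within a pool. Markers of macrophages and monocytes, which enter injured muscle, were called higher under the 2-fold rule in 13 of 17 tested genes in the eccentric against the control pool, in 8 of 17 in the eccentric against the isometric pool and in 4 of 15 in the isometric against the control pool. The summed signal of the 19 markers on the array was 10235 and 10965 in the control pool, 31282 and 31600 in the eccentric pool and 17191 and 17514 in the isometric pool, with Aif1 below the floor throughout. Among neutrophil markers S100a8 and S100a9 were called higher under the same rule in the eccentric pool, 2 of 6 tested against the control pool and 2 of 5 against the isometric pool, with list medians of -0.03 and 0.20. The summed neutrophil signal was 2338 and 1871 in the control, 2185 and 1826 in the eccentric and 1833 and 1495 in the isometric pool. In both of these comparisons 0 of 7 endothelial, 0 of 6 fibroblast, 0 of 4 lymphocyte and 0 of 4 red cell markers were called. Of 14 markers of skeletal muscle 13 were tested. The summed signal of the 14 was 329475 and 268888 in the control, 249847 and 242444 in the eccentric and 237217 and 334423 in the isometric pool. The lowest and the highest sum thus both came from the isometric pool. In the eccentric against the control pool 9 of these 13 were lower (all genes 31%) and 3 higher (30.8%) without overlap, with a median log2 difference of -0.26. Of the 13, 1 was called at 2-fold, Myog, the myogenic factor myogenin, which was higher. Between the exercised pools 4 of 13 muscle markers were lower without overlap, near the share of all genes (25.1%), and 1 was higher (28.5%), with a median of -0.19 and 0 called. Beta-actin probes near the 3' end outshone those near the 5' end. The log2 ratio was 0.44 in the eccentric, 0.21 in the isometric and 0.04 in the control pool, and for Gapdh it was 0.12, 0.10 and -0.06. The isometric arrays differed, with 0.14 on A and 0.28 on B for beta-actin and -0.07 and 0.27 for Gapdh. These measures depend on RNA quality and labelling. The 18S rRNA signal ran from 1761 on isometric A to 23476 on isometric B and from 3870 on control B to 15860 on control A. Control A and isometric B, the brighter 18S array of each pair, were set aside in an alternative chosen after seeing the data. The median log2 difference between the exercised pools was then 0.20 for cap and 0.17 for core genes. Control A has no part in that comparison, so these are the values without isometric B. The part of macrophage RNA, of the muscle markers, of RNA quality and of 18S rRNA in the proteasome differences was not tested. In whole muscle, fewer cells of a type and less RNA per cell cannot be told apart.

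**Figure D2:**
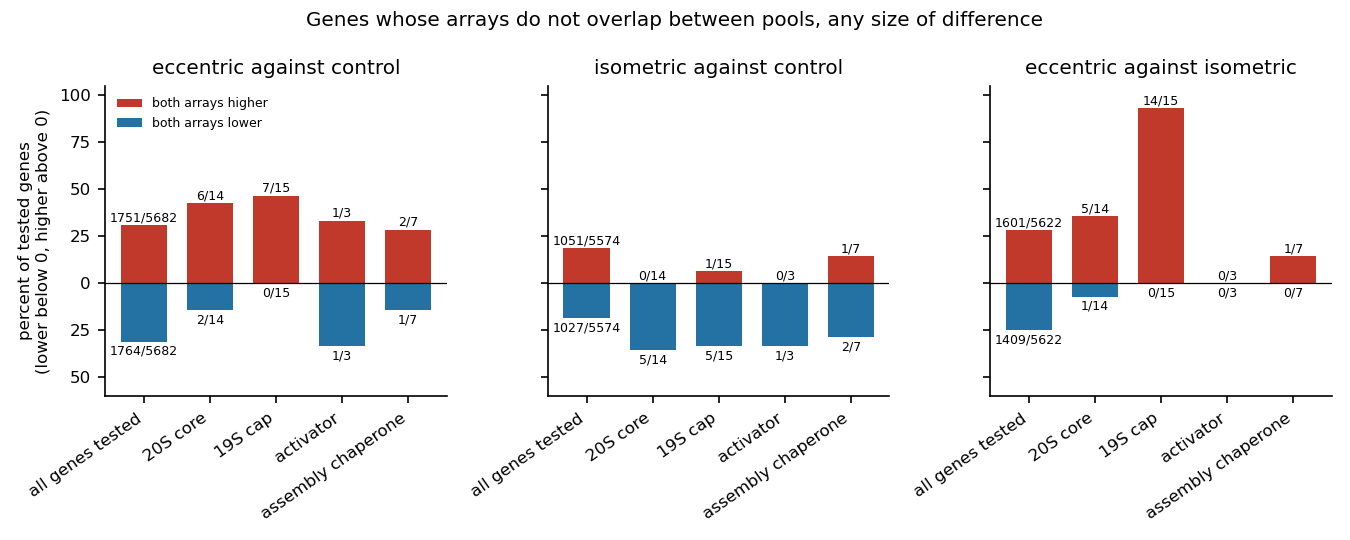
Percent of tested genes (y axis) whose 2 arrays were both higher (red, above 0) or both lower (blue, below 0) than both arrays of the other pool, for all genes tested and for 4 groups of proteasome genes, in 3 comparisons. Counts stand at the bars. The cap bar of the eccentric against isometric panel reaches 14 of 15 genes, against 5 of 14 for the core and 0 of 3 for the activators.

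The contrast of cap and core was not tested. Under the 1.5-fold rule 3 of 15 cap genes (Psmd4, Psmd7 and Psmd8) and 0 of 14 core genes were higher in the eccentric than in the isometric pool. The share of all genes was 7.7%. Against the control pool 2 cap and 0 core genes were higher in the eccentric pool, where 12.2% of all genes were. With 1 array left out, which by construction leaves fewer pairings and makes non-overlap easier, the cap count was 14 to 15 of 15 and the core count was 9 of 14 without eccentric A, 6 without eccentric B and 8 without either isometric array. Under median scaling the counts were 11 of 15 and 4 of 14, and under quantile normalization 14 of 15 and 8 of 14. Against the control pool 7 of 15 cap genes and 6 of 14 core genes were higher without overlap in the eccentric pool (all genes 30.8%), and 0 and 2 were lower (31%). In the isometric pool 5 of each were lower without overlap (all genes 18.4%), and 1 cap gene and 0 core genes were higher (18.9%).

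Among the ATPases of the base, which unfold substrates, differences between the exercised pools were small and one way. Psmc1, Psmc2, Psmc3, Psmc5 and Psmc6 had log2 differences of 0.08 to 0.24 between the eccentric and the isometric pool. All 5 were higher on both eccentric arrays (all genes 28.5%), and none reached the 1.5-fold rule. For Psmc3 this absence of overlap held on the probe set used. On its other probe sets the eccentric and isometric arrays overlapped, with log2 differences of 0.17 on each. Psmc5 had signals of 1716 and 1955 on the control arrays, 2231 and 2209 on the eccentric arrays and 2074 and 2130 on the isometric arrays. It was thus the tested cap gene with the smallest difference between the exercised pools, at 1.06-fold (1.04 to 1.08), and the cap gene that lay above the control pool without overlap in both. Psmc2 had 3016 and 3234, then 3162 and 3190, then 2895 and 2877 in the same order of pools, and its isometric arrays lay below all others. Psmc1 had 1803 and 1790, 1960 and 1937, and 1484 and 1845, with isometric A the lowest of the 6. Psmc3 had 2594 and 2365, 2502 and 2854, and 2377 and 2395, and Psmc6 had 3945 and 5385, 4734 and 5018, and 4337 and 4070. In both of these the control arrays overlapped those of either exercised pool.

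Psmd4, a subunit of the base that binds ubiquitin chains, differed most of the base genes. Its signals were 3025 and 2525 on the control arrays, 4570 and 4575 on the eccentric arrays and 2403 and 2869 on the isometric arrays. The eccentric arrays stood clear of the other 4, which overlapped. Psmd4 was 1.65-fold (1.51 to 1.81) higher in the eccentric than in the control pool and 1.74-fold (1.59 to 1.90) higher than in the isometric pool, passing the 1.5-fold rule in both. Psmd1, a scaffold subunit of the base, had 3799 and 3192, 3356 and 3314, and 3054 and 3034, with a log2 difference of 0.13 between the exercised pools and no overlap.

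In the lid, which strips ubiquitin from substrates, Psmd8 had the largest difference. Its signals were 1372 and 1466 on the control arrays, 2233 and 2463 on the eccentric arrays and 1352 and 1196 on the isometric arrays. The eccentric arrays lay above the other 4, and the isometric arrays lay just below the control arrays. Psmd8 was 1.65-fold (1.52 to 1.79) higher in the eccentric than in the control pool and 1.84-fold (1.65 to 2.06) higher than in the isometric pool, which passed the 1.5-fold rule in both. Psmd4 and Psmd8 passed that rule in both comparisons with each array left out in turn, at 1.51-fold to 1.81-fold and 1.57-fold to 1.74-fold against the control pool.

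Limma, fitted to the 6 arrays as a test of array spread that compares these pools only, gave Benjamini-Hochberg adjusted p = 0.0365 for Psmd8 and 0.0497 for Psmd4 between the eccentric and the control pool, the pair of members it called. With the array letter as a block the adjusted p were 0.0787 and 0.0955, and 0 members were called, with 5 at an unadjusted p below 0.05. Between the exercised pools limma's adjusted p without a block were 0.0575 and 0.0766, and 0 members were called, with 7 at an unadjusted p below 0.05.

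Psmd7, the partner of the deubiquitinase in the lid, had 3171 and 2811 on the control, 3308 and 3611 on the eccentric and 2128 and 2404 on the isometric arrays. Both isometric arrays were below and both eccentric arrays above the control arrays. The eccentric pool was 1.53-fold (1.38 to 1.70) higher than the isometric pool, and most of this lay in the low isometric signal, which was 0.40 below the control pool on the log2 scale. Leaving out eccentric B or isometric A took it under 1.5-fold, to 1.46-fold and 1.44-fold.

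Psmd3 and Psmd13, structural subunits of the lid, followed Psmd8 with smaller differences. Psmd3 had 1436 and 1356, 1968 and 1978, and 1325 and 1550 in the control, eccentric and isometric pools, and was 1.41-fold (1.37 to 1.46) higher in the eccentric than in the control pool. Psmd13 had 1288 and 1171, 1669 and 1695, and 1151 and 1271, and was 1.37-fold (1.30 to 1.45) higher. In both genes the control and isometric arrays overlapped and neither passed the 1.5-fold rule. Psmd14, the deubiquitinase itself, had 1105 and 1314, 1396 and 1226, and 1112 and 1039, with overlapping control and eccentric arrays. Psmd6, a structural subunit, had 3317 and 3602, 3310 and 3366, and 3024 and 3193, the smallest lid difference between the exercised pools at a log2 of 0.10. Psmd11, a subunit that joins lid and core, had 3223 and 3734, 3114 and 4341, and 2791 and 3249 on the probe set used, and was the 1 tested cap gene whose eccentric and isometric arrays overlapped. Psmd12, a scaffold subunit, had 1085 and 1330, 1284 and 1263, and 1195 and 1023. Over the 8 lid genes the median log2 difference was 0.37 between the exercised pools, 0.16 between the eccentric and the control pool and -0.16 between the isometric and the control pool, where the medians of all genes were 0.02, -0.02 and -0.01.

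**Figure D3:**
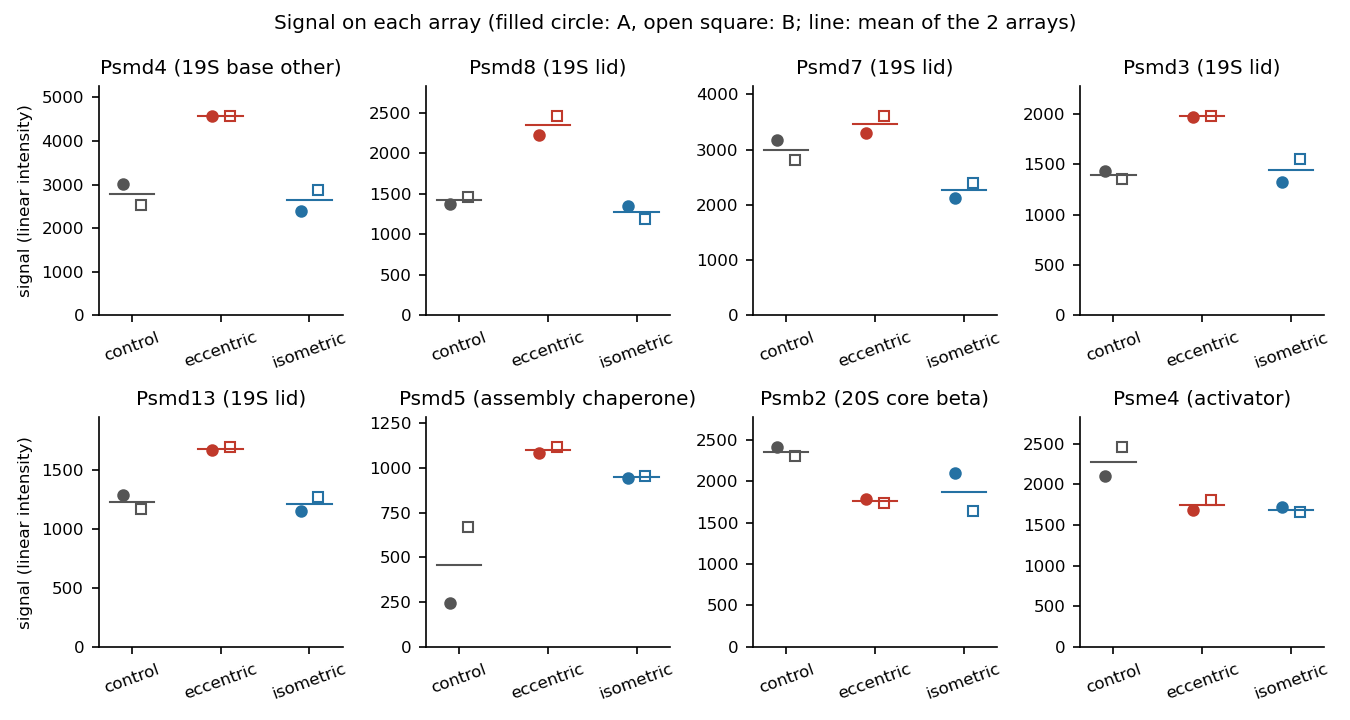
Signal on each array (y axis, linear intensity from 0) of 8 proteasome genes in the control, eccentric and isometric pools (x axis). Filled circles are arrays A, open squares arrays B, and lines their means. Psmd4, Psmd8, Psmd3 and Psmd13 are high on both eccentric arrays, at 1669 to 4575, Psmd7 is low on both isometric arrays, Psmb2 and Psme4 are high in the control pool, and the control arrays of Psmd5 lie far apart at 245 and 669.

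The upstream sequences of the cap genes that differed most and of 2 catalytic subunit genes that passed no rule are set side by side because a known regulator of proteasome genes, the transcription factor encoded by Nfe2l1, binds antioxidant response elements near their starts. The windows are the 250 bases before the start of each gene from RefSeq (GRCm38.p6), 5′ to 3′ on the strand of the gene, at chr3:95042615-95042864 (minus strand) for Psmd4, chr7:29180674-29180923 (minus) for Psmd8, chr14:54617996-54618245 (minus) for Psmb5 and chr11:70525107-70525356 (plus) for Psmb6. Capitals mark TGACNNNGC, the core of that element, and CCAAT, the box bound by NF-Y, each searched on both strands, with no overlap between them in any window printed.
Psmd4: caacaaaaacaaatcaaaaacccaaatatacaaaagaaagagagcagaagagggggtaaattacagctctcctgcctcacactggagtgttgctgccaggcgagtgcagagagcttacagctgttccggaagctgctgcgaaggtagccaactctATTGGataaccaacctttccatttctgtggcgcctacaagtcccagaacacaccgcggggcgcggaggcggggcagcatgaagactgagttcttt
Psmd8: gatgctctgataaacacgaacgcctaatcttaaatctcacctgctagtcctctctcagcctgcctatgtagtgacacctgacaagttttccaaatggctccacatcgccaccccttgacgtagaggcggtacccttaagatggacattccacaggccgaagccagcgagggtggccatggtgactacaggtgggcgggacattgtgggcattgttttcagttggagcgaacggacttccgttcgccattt
Psmb5: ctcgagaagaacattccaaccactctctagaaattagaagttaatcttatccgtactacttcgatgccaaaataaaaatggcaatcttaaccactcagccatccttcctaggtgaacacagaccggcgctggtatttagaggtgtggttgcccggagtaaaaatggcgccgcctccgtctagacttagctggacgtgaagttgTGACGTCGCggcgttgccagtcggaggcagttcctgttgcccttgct
Psmb6: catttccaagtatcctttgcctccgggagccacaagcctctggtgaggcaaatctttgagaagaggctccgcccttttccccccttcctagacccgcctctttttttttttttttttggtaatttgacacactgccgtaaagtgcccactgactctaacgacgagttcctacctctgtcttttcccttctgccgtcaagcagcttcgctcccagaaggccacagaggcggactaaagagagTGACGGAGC
Psmd4 held 1 CCAAT box on the reverse strand and Psmd8 neither motif. The catalytic subunit genes Psmb5 and Psmb6, which passed no fold rule, each held the TGACNNNGC core. The cap genes Psmc6 and Psmd12 held it as well. These 2 cap genes and Psmb6 were higher without overlap in the eccentric than in the isometric pool, and Psmb5 and Psmd9, which also held it, overlapped. Windows were given for 36 of the 43 genes, 39 windows in all. The core was in 12.8% of them (Psmb5, Psmb6, Psmc6, Psmd12 and Psmd9) and in 10.2% of all 32851 windows of this length. The CCAAT box was in 35.9% of them and in 33.8% of all windows. A match of letters is a description of the window and not of binding, and a part of these motifs in the differences was not tested.

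Alpha subunits of the core form the outer rings and the gate of the barrel. Of 7, 5 were higher on both eccentric than on both control arrays (all genes 30.8%) and 4 than on both isometric arrays (all genes 28.5%), with medians of 0.15 and 0.33 on the log2 scale. Psma2 had 2593 and 2623 on the control, 2852 and 3200 on the eccentric and 2349 and 2288 on the isometric arrays, so the 3 pools did not overlap. Psma7 had 2823 and 2642, 2858 and 2904, and 2015 and 2393, with the isometric arrays below and the eccentric arrays slightly above the control arrays. Its difference between the exercised pools, 1.31-fold (1.19 to 1.44), was the highest of the alpha genes. Psma1 had 469 and 590, 738 and 617, and 593 and 484, the highest eccentric difference against the control pool of this role at 1.28-fold (1.05 to 1.57). The alpha genes were thus not of one pattern. Psma4 had 2623 and 2114, 2955 and 2637, and 2320 and 2111, close to Psma7 in its difference between the exercised pools (log2 0.33). Psma3 had 6215 and 5628, 6479 and 6692, and 5700 and 6535, with overlapping exercised pools. Psma5 had 1605 and 1769, 1623 and 1428, and 1609 and 1694, and lay the other way between the exercised pools with a log2 difference of -0.12. Psma6 was alike in both exercised pools at 4055 to 4289, with control arrays far apart at 4008 and 5785.

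Beta subunits form the inner rings and include the catalytic ones. Their median log2 difference was 0.08 between the exercised pools, -0.07 between the eccentric and the control pool and -0.12 between the isometric and the control pool. Psmb2, a structural subunit, had 2405 and 2301 on the control, 1778 and 1734 on the eccentric and 2094 and 1643 on the isometric arrays. Both exercised pools lay below the control pool without overlap, by 0.42 (eccentric) and 0.34 (isometric) on the log2 scale, short of 1.5-fold. Psmb7, the trypsin-like catalytic subunit, had 4616 and 4402, 3552 and 3580, and 3953 and 3817. It was the 1 member that was lower without overlap in the eccentric than in the isometric pool, with a log2 difference of -0.12.

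The other catalytic subunits overlapped between pools except Psmb6 between the exercised pools, where both eccentric arrays were slightly higher. Psmb5, the chymotrypsin-like subunit, had 3087 and 3608, 3216 and 3112, and 3538 and 3043 in the control, eccentric and isometric pools. Psmb6, the caspase-like subunit, had 2612 and 1903, 2383 and 2307, and 1872 and 2258, with a log2 difference of 0.19 between the exercised pools. The structural subunits Psmb1, Psmb3 and Psmb4 had log2 differences of -0.07 to 0.11 between the eccentric and the control pool.

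Activators dock on the core in place of the cap. Psme4, a nuclear activator, had 2105 and 2453 on the control, 1678 and 1810 on the eccentric and 1717 and 1660 on the isometric arrays. Both exercised pools were lower than the control pool without overlap, with log2 differences of -0.38 and -0.43, and the arrays of the exercised pools overlapped. Psme1, part of the interferon-inducible activator, had 865 and 750, 876 and 814, and 779 and 1048, which overlapped throughout. Psme3, a nuclear relative of Psme1, had 556 and 593, 658 and 720, and 868 and 499, and was 1.20-fold (1.11 to 1.30) higher in the eccentric than in the control pool.

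Of the assembly chaperones, Psmd5, which helps to build the base, had 245 and 669 on the control, 1084 and 1115 on the eccentric and 944 and 957 on the isometric arrays. The 4 exercised arrays lay close together, and the control arrays were far apart below them. Psmd5 was 2.71-fold (1.62 to 4.55) higher in the eccentric and 2.35-fold (1.41 to 3.90) higher in the isometric than in the control pool, which passed the 2-fold rule in both. Without control A the log2 differences were 0.72 and 0.51 and neither passed, and limma did not call it (adjusted p = 0.0959 and 0.415).

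The other base chaperones, Psmd9 and Psmd10, differed less. Psmd9 had 330 and 379, 432 and 479, and 506 and 359, with a log2 difference of 0.36 between the eccentric and the control pool, and Psmd10 stayed near the floor at 120 to 144. Psmg1 and Psmg2, which together help to form the alpha ring, had overlapping arrays in all 3 comparisons, with 256 and 332, 288 and 250, and 471 and 257 for Psmg1. Psmg4, which also acts on the alpha ring, had 646 and 700, 699 and 626, and 640 and 546, and was lower without overlap in the isometric than in the control pool. Its partner Psmg3 had 1751 and 1393 in the control and 1342 and 1285 in the eccentric pool, a log2 difference of -0.25. The proteasome-binding protein Psme3ip1, which is not a subunit, had 546 and 586, 645 and 685, and 646 and 566.

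Some of these genes had several probe sets, and these did not always go the same way. Of the 43 genes 8 had more than 1, and the brightest was used. Psmd11 had 3, with log2 differences between the eccentric and the control pool of 0.08 on the one used, 0.62 on a dimmer one (1375 and 1774 against 2374 and 2441) and -0.68 on the dimmest. The dimmer one would have passed the 1.5-fold rule as higher and the dimmest, near 164 to 321, as lower. Psmb1 had a log2 difference of -0.07 on the probe set used and 0.36 on another (1554 and 1678 against 2119 and 2022). Psmg3 had -0.25 on the one used and 0.48 on another whose control arrays read 511 and 84.5. A dim second probe set of Psmb4 had 264 and 163 against 83.4 and 131, partly below the floor, and passed the 1.5-fold rule as lower. Between the exercised pools Psmd11 had 0.29 with overlap on the probe set used. Without overlap, its dimmer one was higher (0.58) and its dimmest lower (-0.40). Psmb1 overlapped on the one used and was higher without overlap on the other (0.19). The cap and core counts, 14 and 5, thus depend on the probe set, and were 15 and 6 with the mean over all probe sets. For 8 genes, Psma3, Psmb4, Psmb5, Psmb7, Psmc3, Psmd12, Psmd9 and Psmg3, the probe set used carries a suffix that marks probes shared with other sequences or incomplete, and its signal can include other transcripts.

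**Figure D4:**
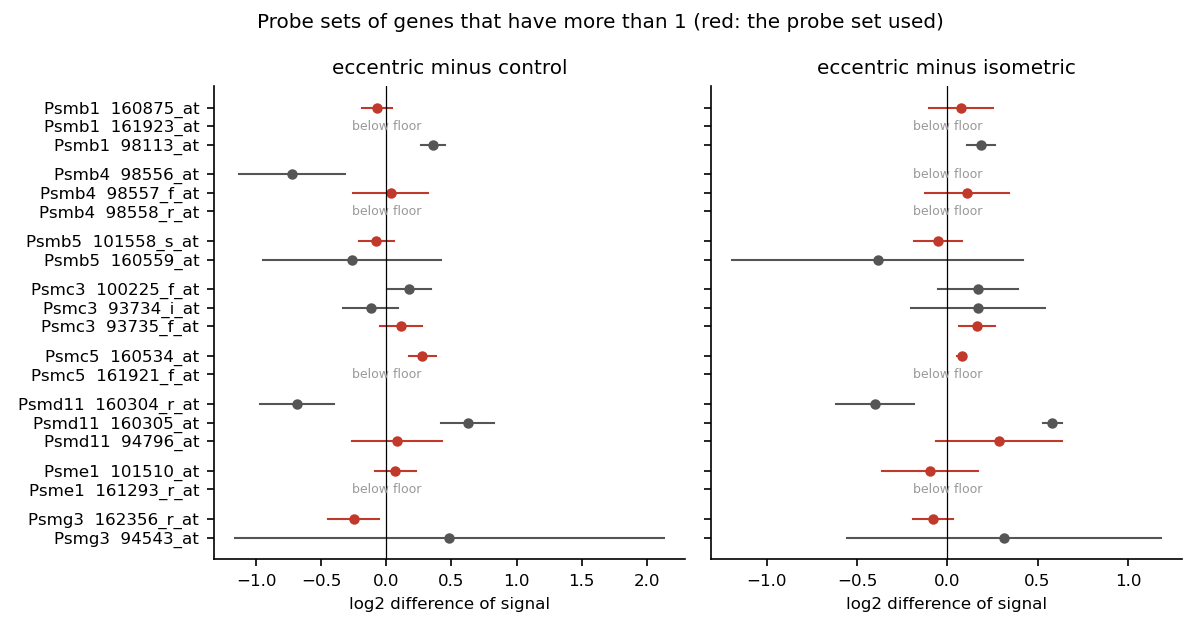
Log2 difference of signal (x axis) on each probe set (y axis) of the 8 proteasome genes with more than 1, eccentric minus control on the left and eccentric minus isometric on the right. Points are differences of pool means, bars span the 4 pairings of arrays, and the probe set used is red. The 3 probe sets of Psmd11 spread from -0.68 to 0.62 in the left panel.

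The inducible catalytic subunits Psmb8, Psmb9 and Psmb10 take the places of Psmb5, Psmb6 and Psmb7 in immune cells and under interferon. Psmb8 had 349 and 378 on the control, 786 and 764 on the eccentric and 383 and 464 on the isometric arrays, and passed the 2-fold rule for the eccentric against the control pool (log2 1.09) and the 1.5-fold rule between the exercised pools (0.88). Psmb5, whose place it takes, had log2 differences of -0.08 and -0.05 in these comparisons. Psmb9 had 72.3 and 146, 242 and 222, and 114 and 257, with 1 control array and 1 isometric array below the floor, and passed the 1.5-fold rule in the eccentric against the control comparison. Psmb10 had 637 and 510, 642 and 646, and 784 and 544, with no call. The macrophage markers given above moved with Psmb8 as well, and their part in it was not tested.

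Other genes of the pathway formed short lists, whose calls are set beside the shares of all genes. Of 9 measured proteins that bind or assemble the proteasome outside the Psm symbols 0 passed the 2-fold rule in the eccentric against the control pool (all genes 6.21%). At 1.5-fold 1 was higher there (all genes 12.2%), and the median log2 difference was 0.18. That gene was Akirin2, a nuclear import factor of the proteasome, and it was named after its values were seen. Between the exercised pools 0 of the 9 passed the 2-fold rule (all genes 2.4%), and 1 was higher at 1.5-fold in the eccentric pool (7.7%). This was Zfand2a, an arsenite-inducible proteasome partner, likewise named after its values were seen. Of 6 genes for ubiquitin shuttles and the Vcp complex 0 were called at 2-fold in the eccentric against the control pool (all genes 6.21%). At 1.5-fold 1, Faf1 (named after its values were seen), was lower there (all genes 7.25%). Of 9 tested regulators of proteasome genes 0 were called at 2-fold, again in the eccentric against the control pool. At 1.5-fold 1, Nfya (named after its values were seen), the DNA-binding part of NF-Y, was higher there (all genes 12.2%). Between the exercised pools 0 genes of either list passed the 1.5-fold rule (all genes 7.7% higher and 4.94% lower). Nfe2l1 itself had 4572 and 4438 on the control, 4107 and 4806 on the eccentric and 4678 and 4829 on the isometric arrays. Nfe2l2, a relative that answers oxidative stress, had 842 and 936, 930 and 940, and 901 and 841, so neither differed beyond its arrays between the eccentric and the control pool.

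The remaining lists touch the steps before and after the proteasome. Of 5 tested genes that load peptides onto MHC class I, 1 was called higher in the eccentric than in the control pool (all genes 5.16%). This was the disulfide isomerase Pdia3, with 410 and 582 in the control against 927 and 1098 in the eccentric pool. All 5 were higher without overlap there (all genes 30.8%), and macrophage markers, whose part was not tested, moved with them. Of the muscle ubiquitin ligases Stub1 and Nedd4 were measured, with 0 called, and Uba3 was the measured gene of the ubiquitin and activating enzyme list, with 0 called. Fbxo32 and Trim63, the ligases best known from muscle wasting, were not analysed here.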

How the data were processed

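Signals came from 6 Affymetrix MGU74Av2 arrays, 2 for each of 3 RNA pools of 4 animals, per the labels. The deposited values were a linear intensity for each probe set on each array. The authors' software and background correction are not given in the sources used. All 6 arrays had nearly the same mean signal after trimming 2% at each end. Each array was scaled to the average of these means, values under the 40th percentile (120.8) were raised to that floor, and logarithms to base 2 were formed. Gene names came from the platform annotation, which gave 10833 probe sets 1 gene, 396 several and 1193 none, beside 66 control probe sets. For genes with several probe sets the brightest was used. The 43 gene IDs were all found in a RefSeq gene table (GRCm38.p6), which changed 0 symbols. Members, roles, gene lists and rules were chosen with earlier results of these data known.

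Calls used the 2-fold rule of the report, with a 1.5-fold rule, other scalings, floors, filters and probe sets, left-out arrays and limma as alternatives. The size rule and limma were tested on simulated data with planted changes far larger than most proteasome differences here, so those tests do not cover small differences. Named genes are the members, Psmb8, Psmb9, Psmb10, Nfe2l1, Nfe2l2 and up to 4 genes of each other list that passed the 2-fold rule. Outside that rule Akirin2, Zfand2a, Faf1 and Nfya were named after their values were seen. Aif1, Stub1, Nedd4 and Uba3 are named as well, and Psme2, Fbxo32 and Trim63 as not analysed here. The letters A and B do not pair the arrays: deviations of arrays A correlated at -0.11 to 0.03 between pools. The number of arrays limits the precision. Python 3.11.15, numpy 2.4.6, pandas 2.3.3, matplotlib 3.10.9, R 4.3.3 and limma 3.58.1 were used.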

Additional observations from a re-analysis of the deposited data

Results flagged for a closer look

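In 4 proteasome genes both eccentric arrays lay above and both isometric arrays below both control arrays, so the exercised pools differed from the control pool in opposite directions. These were 4 of the 40 proteasome genes tested in all 3 comparisons, where 1.75% of the 5312 genes so tested showed the same pattern. The log2 differences between the eccentric and the isometric pool were 0.88 for the lid subunit Psmd8, 0.61 for the lid subunit Psmd7, 0.39 for the alpha subunit Psma7 and 0.38 for the alpha subunit Psma2. Against the control pool the eccentric differences were, in this order, 0.73, 0.21, 0.08 and 0.21. The isometric differences were -0.16, -0.40, -0.31 and -0.17. Some were close to 0: single pairings reached 0.02 for Psma7 (eccentric) and -0.02 for Psmd8 (isometric). With 1 pool per group the difference in direction was not tested.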

How the results depend on the processing

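The call of single proteasome genes under each alternative, by that alternative's own rule, was compared with their call under the 2-fold rule. The genes were those past a rule, the highest and lowest of each role in each comparison, and Psme1 and Psme3. Of 1131 values 1116 kept their call, 8 lost one, all Psmd5 against the control pool, 7 gained one (Psmd4, Psmd7 and Psmd8) and 0 reversed. The gained calls came from the 1.5-fold threshold or limma, at unchanged differences. The lost calls came from limma, at unchanged differences, or from leaving out control A, alone or with isometric B. The count of called proteasome genes between the eccentric and the control pool was 1, and became 3 at 1.5-fold, 2 with limma, 0 with limma and the array letter as a replicate block, 0 on leaving out control A together with isometric B (chosen after seeing the data) and 0 to 1 with single arrays left out, the 0 being without control A. Between the isometric and the control pool it was 1, and 0 with limma (3 of 40 had an unadjusted p below 0.05), with the replicate block, and with those 2 arrays left out, and 0 to 1 with single arrays left out, the 0 again without control A. Between the exercised pools it was 0, and 3 at 1.5-fold. The replicate block rests on letters that the arrays share and that do not pair them. Leaving out control A and isometric B together changes a comparison only through the arrays of its own pools. Between the exercised pools it is the same as leaving out isometric B, and between the eccentric and the control pool the same as leaving out control A.

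The median log2 difference of the proteasome genes between the eccentric and the control pool was 0.084, 0.12 under quantile normalization and 0.081 to 0.12 with single arrays left out. Between the exercised pools it was 0.14, 0.080 under median scaling and 0.092 to 0.18 with single arrays left out. The core median there, 0.11, was 0.17 under quantile normalization, 0.051 under median scaling, 0.17 without control A and isometric B, and 0.057 to 0.17 with single arrays left out. The count of non-overlapping core genes, 5, was 8 under quantile normalization and with those 2 arrays left out, and 6 to 9 with single arrays left out. The cap count, 14 of 15, was 11 under median scaling (core 4) and 14 to 15 under the others, and the cap median was 0.18 to 0.27. The cap and core values and their alternatives were added after seeing the data.

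Counts over all genes moved more. Between the eccentric and the control pool 353 genes became 1103 at 1.5-fold, 617 and 190 with the floor at the 20th and 60th percentile, and 540 with limma. Between the exercised pools 135 became 711, 337 and 71 under the same threshold and floors, 75 with limma, 8 with the replicate block, 204 without control A and isometric B, and 176 to 219 with single arrays left out (219 without isometric A and 204 without isometric B). Between the isometric and the control pool 69 became 346, 268 and 23, 45 with the mean of all probe sets, 1 with limma, and with the replicate block 0 (521 unadjusted), 136 without control A and isometric B, and 82 to 206 with single arrays left out (206 without control B, 145 without isometric A and 123 without isometric B). The cause of these changes was not tested. Scalings moved the median of all genes by less than 0.1 on the log2 scale.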
